A study of Mus musculus with 21 samples.

Results

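Macrophage markers and the genes of major histocompatibility complex (MHC) class II were followed in the left ventricle (LV) of mice with hypertrophic cardiomyopathy. The set held 38 genes, chosen by name for their role in macrophages or in class II antigen presentation, of 55450 genes in the count table. Earlier results of these data were known when the set was chosen. The shares of all genes printed beside its counts therefore describe the set and are no independent test of it. All 38 were found in the table and all 38 passed the filter on low counts. The mice were male 129S6/SvEv littermates. R403Q mice carry a missense change in the α-myosin heavy chain, the product of Myh6, and wild-type (WT) mice do not. Mice received a control diet (CD) or the same diet with empagliflozin (EMPA), an inhibitor of the sodium-glucose cotransporter SGLT2, at 0.15 mg per g of diet. RNA was sequenced from the LV of 5 WT-CD, 7 R403Q-CD, 4 R403Q-EMPA and 5 WT-EMPA mice, with the diets begun at 9 to 10 weeks of age. The age of the sequenced R403Q hearts was stated as 12 weeks, so the 16-week treatment course named in the labels had not ended. The study calls the empagliflozin treatment of these hearts brief, and every diet comparison below rests on that short exposure. The samples were whole-tissue RNA with no sorting of cells, so fewer or more macrophages and less or more RNA per macrophage cannot be told apart in any result.

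The healthy heart holds macrophages that settle early in life and renew themselves in place, and these carry receptors for the uptake of dead cells and haemoglobin. Blood monocytes enter the heart through the chemokine receptor CCR2 and take on macrophage features after injury. Both kinds can present peptides on MHC class II, whose α and β chains are assembled on the invariant chain encoded by Cd74.

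Promoter sequences are shown for members from the class II group and for 4 others named in the results below. Class II genes share a conserved promoter block with a Y box. Many myeloid genes carry a PU box, the core of the site read by the factor that Spi1 encodes. All 4 of the others shown have a PU box, while members such as Ly86, Lyz2 and Fcer1g had a window without it and are not shown. The windows ran from 250 bases before to 50 bases after the RefSeq start of the gene (GRCm38.p6), and 27 of the 38 members had one. Capitals mark the Y box (CTGATTGG) in the class II genes and the PU box (GAGGAA, or its complement TTCCTC) in the others. The windows lie at chr17:34287774-34288073 on the minus strand (H2-Aa), chr17:34305617-34305916 on the plus strand (H2-Eb1), chr1:171059354-171059653 on the minus strand (Fcgr3), chr4:130913066-130913365 on the plus strand (Laptm5), chr4:136886151-136886450 on the minus strand (C1qb) and chr11:114989837-114990136 on the minus strand (Cd300ld).
H2-Aa: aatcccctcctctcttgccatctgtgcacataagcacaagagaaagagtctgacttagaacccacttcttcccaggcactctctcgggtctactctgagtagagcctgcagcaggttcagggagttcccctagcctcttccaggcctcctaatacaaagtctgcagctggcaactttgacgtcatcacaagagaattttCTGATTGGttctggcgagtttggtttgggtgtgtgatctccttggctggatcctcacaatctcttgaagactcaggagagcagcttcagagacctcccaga
H2-Eb1: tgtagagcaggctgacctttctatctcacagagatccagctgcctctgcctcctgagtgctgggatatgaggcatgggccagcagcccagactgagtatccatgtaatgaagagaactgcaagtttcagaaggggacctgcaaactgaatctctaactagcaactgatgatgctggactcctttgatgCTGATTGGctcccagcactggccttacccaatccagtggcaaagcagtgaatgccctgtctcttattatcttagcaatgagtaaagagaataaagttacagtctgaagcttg
Fcgr3: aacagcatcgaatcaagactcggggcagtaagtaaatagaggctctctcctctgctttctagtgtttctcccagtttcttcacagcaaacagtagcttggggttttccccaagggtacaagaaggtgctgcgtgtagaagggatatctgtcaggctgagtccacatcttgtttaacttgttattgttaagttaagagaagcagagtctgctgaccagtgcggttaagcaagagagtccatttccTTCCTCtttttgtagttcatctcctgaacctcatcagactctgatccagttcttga
Laptm5: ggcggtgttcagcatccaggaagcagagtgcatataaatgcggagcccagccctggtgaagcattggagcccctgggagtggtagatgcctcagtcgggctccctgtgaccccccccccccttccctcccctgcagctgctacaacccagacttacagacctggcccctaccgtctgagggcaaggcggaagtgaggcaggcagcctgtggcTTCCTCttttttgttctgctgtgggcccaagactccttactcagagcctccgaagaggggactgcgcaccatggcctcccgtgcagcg
C1qb: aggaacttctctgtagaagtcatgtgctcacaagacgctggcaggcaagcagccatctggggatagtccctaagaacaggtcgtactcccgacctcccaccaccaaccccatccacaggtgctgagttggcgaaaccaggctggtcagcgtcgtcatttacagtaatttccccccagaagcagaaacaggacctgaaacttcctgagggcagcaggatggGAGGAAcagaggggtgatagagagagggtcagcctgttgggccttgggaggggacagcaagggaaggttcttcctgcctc
Cd300ld: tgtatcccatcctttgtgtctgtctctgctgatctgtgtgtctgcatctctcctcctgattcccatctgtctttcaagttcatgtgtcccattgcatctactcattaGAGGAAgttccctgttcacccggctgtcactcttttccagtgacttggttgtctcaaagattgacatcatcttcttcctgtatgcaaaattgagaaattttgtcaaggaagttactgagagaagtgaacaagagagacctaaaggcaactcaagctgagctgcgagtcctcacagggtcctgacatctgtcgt
Searched on both strands, the Y box stood in 2 of the 27 member windows (7.41%), H2-Aa and H2-Eb1, where it began 51 and 62 bases before the start, and in 4.31% of the 27025 promoters in the table. The PU box stood in 14 of the 27 (51.9%), among them Cd68, Ptprc, Ctss, Cybb, Mrc1, Itgam, Fcgr1 and Trem2, against 28.3% of all promoters. The median GC content was 47.7% in the member windows and 52.7% in all. A match of these letters is a description of the window and not evidence of binding.

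Total counts ran from 23491535 to 43539684 per mouse. Gene levels are given in CPM, the count scaled to the effective size of the library. A floor of 3 counts, scaled to the total counts instead, equalled 0.0689 to 0.128 CPM. The lowest count of a member in any mouse was 13 (Aif1 in a WT-EMPA mouse). Intervals and floors of this kind cover counting error only. The mouse R403Q-CD 2 stood apart from the rest. It was the highest of the 21 mice for 33 of the 38 members, its Myh6 took 1.95% of counts against 3.09% to 3.99% in the other R403Q-CD mice, and its Nppa, the atrial natriuretic peptide gene of stressed ventricle, reached 10996 CPM against 883 to 3826. Its summed fibroblast markers were 5353 CPM against a group median of 1729. The main counts and medians of the comparisons that contain it are therefore given with and without it. The mouse WT-EMPA 1 was the lowest of all for 23 members. Mice shared 7 cages, each on a single diet, so cage and diet cannot be told apart, while 6 cages held both genotypes.

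In the WT-CD heart, Lyz2, the lysozyme gene of phagocytes, had the highest level per kilobase of exon among the members, at 101 ± 14.1 CPM per kb (SD, n = 5), followed by C1qa at 47.8 ± 5.94, the invariant chain gene Cd74 at 41.4 ± 9.52, C1qb at 40.6 ± 6.84 and C1qc at 24.4 ± 3.81. C1qa, Cd74 and C1qb were within their spreads of each other. The 3 C1q genes, which encode the chains of the first complement component, lie side by side on chromosome 4 between 136880129 and 136898803, and H2-Ab1, H2-Aa and H2-Eb1 lie side by side on chromosome 17 between 34257689 and 34316674 (GRCm38). At the low end stood Gpnmb at 0.229 ± 0.107 CPM per kb, a lysosomal glycoprotein gene of lipid-laden macrophages, and the chemokine receptor genes Cx3cr1 at 0.254 ± 0.0895 and Ccr2 at 0.319 ± 0.104, whose order was within their spread. Lyz2 has a near-identical neighbour in Lyz1 and Fcgr3 resembles Fcgr2b, so reads that fit both copies make their levels less certain. Itgam shares same-strand exons with the model Gm49368 and Cd74 contains the microRNA gene Mir5107.

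**Figure D1:**
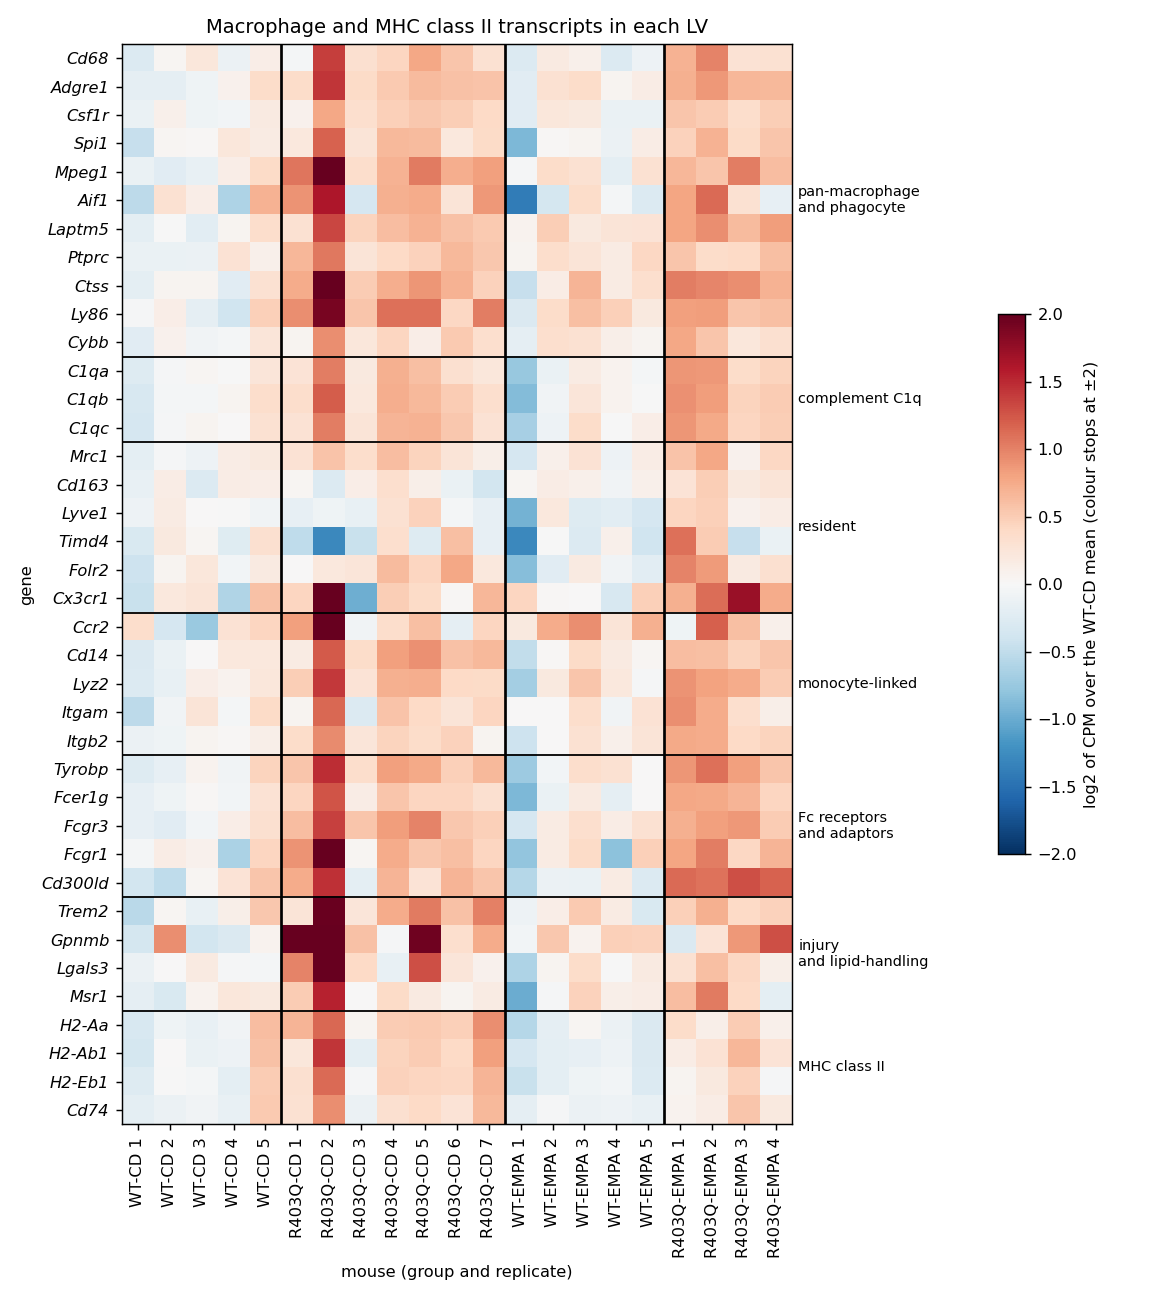
Each row is 1 of the 38 genes and each column 1 of the 21 mice, and the colour is the log2 ratio of the mouse's CPM to the WT-CD mean. R403Q columns were mostly above the WT-CD mean on both diets, and R403Q-CD 2 was the highest mouse for 33 genes.

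On the control diet, 36 of the 38 members had a higher fitted level in R403Q-CD than in WT-CD mice, with a median log2 fold change of 0.59 (range -0.17 to 1.68) against 0.01 over all 17025 genes tested. A fold change above 0 was seen in 52.5% of all genes. In the quasi-likelihood test of edgeR, 5 members passed an adjusted p of 0.05, all higher in R403Q-CD: Fcgr3, Csf1r, Ptprc, Ly86 and Cd14. Of all genes tested, 0.37% were called higher. At an unadjusted p under 0.05, 31 members were higher, against 11.2% of all genes.

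Fcgr3, an activating receptor for the Fc part of antibodies, was at 11.8, 11.3, 12.7, 14.5 and 16.5 CPM in the WT-CD mice, and at 18.5 (lowest), 20.3 (median) and 34.1 CPM (highest) in the 7 R403Q-CD mice. The lowest R403Q-CD mouse was thus above the highest WT-CD mouse. Its log2 fold change was 0.79 (SE 0.147, adjusted p = 0.0255). Csf1r encodes the receptor for the growth factor on which macrophages depend. It was at 43.9, 51.8, 45.5, 46.5 and 54.7 CPM in WT-CD and from 51.3 to 82.4 CPM with a median of 67.4 in R403Q-CD, and differed by 0.46 on the log2 scale (SE 0.092, adjusted p = 0.04). The groups overlapped through the lowest R403Q-CD mouse.

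Ly86, a partner protein of a Toll-like receptor relative, had the largest log2 fold change of the 5, at 1.06 (SE 0.228, adjusted p = 0.0459), with 1.66, 1.87, 1.48, 1.26 and 2.37 CPM in WT-CD and 2.27 to 6.44 CPM with a median of 3.48 in R403Q-CD. Ptprc, the CD45 gene of all leukocytes, was at 6.75, 6.72, 6.81, 9.05 and 7.90 CPM in WT-CD and 8.82 to 15.4 CPM in R403Q-CD (log2 fold change 0.59, SE 0.124, adjusted p = 0.0431). Cd14, the co-receptor for bacterial lipopolysaccharide, was at 6.07, 6.83, 7.50, 8.62 and 8.63 CPM in WT-CD and 8.34 to 17.6 CPM in R403Q-CD (0.71, SE 0.152, adjusted p = 0.0459). In each of these 3 genes the lowest R403Q-CD mouse reached into the WT-CD range. Just beyond the threshold were the lysosomal membrane gene Laptm5 (0.67, SE 0.150, adjusted p = 0.0534), the signalling adaptor Tyrobp (0.76, SE 0.178, adjusted p = 0.0574) and the lysosomal protease Ctss, which trims the invariant chain (0.95, SE 0.224, adjusted p = 0.059).

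Members whose R403Q-CD mice all lay above all WT-CD mice numbered 3 (Fcgr3, Ctss and Lyz2), and 1.13% of all genes showed the same. Without R403Q-CD 2, 37 members were higher, the median was 0.43 and 11 members were called against 0.656% of all genes: Adgre1, Csf1r, Mpeg1, Laptm5, Ptprc, Ctss, Ly86, Cd14, Lyz2, Tyrobp and Fcgr3. The count fell to 0 without any one of WT-CD 1, WT-CD 2, WT-CD 3, WT-CD 4, R403Q-CD 4 or R403Q-CD 5, to 1 without R403Q-CD 7 and to 2 without R403Q-CD 6, and was 17 without R403Q-CD 3. The whole table moved as well: the genes called in either direction were 98 in all mice, 14 to 37 in the fits with 0 members, 68 and 88 without R403Q-CD 7 and R403Q-CD 6, and 630 of 16992 without R403Q-CD 3. A fit of these groups alone gave 0 calls (31 at an unadjusted p under 0.05), the same with cage as a factor 0 (34), DESeq2 20, a fit of all 4 groups 10 and cage as a random effect 10, while over all genes these called 28, 19, 806, 250 and 205.

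**Figure D2:**
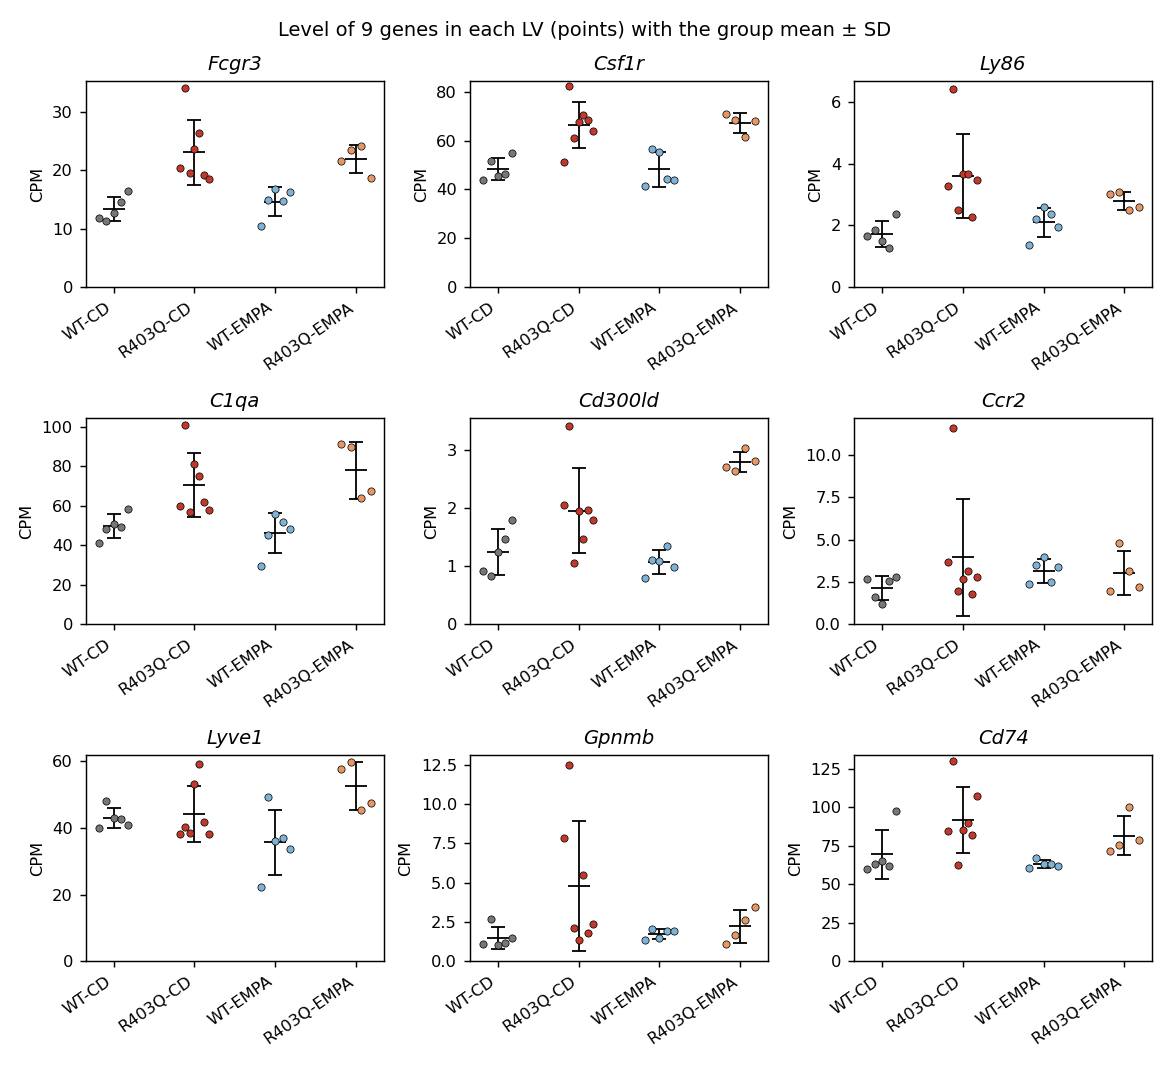
Points are CPM in single mice for 9 members in the 4 groups, and bars mark the mean ± SD. Fcgr3 in R403Q-CD mice (18.5 to 34.1 CPM) lay above WT-CD (11.3 to 16.5 CPM), and Cd300ld in R403Q-EMPA mice (2.63 to 3.03 CPM) lay above WT-EMPA (0.790 to 1.35 CPM).

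The same genotype comparison was available on the empagliflozin diet in mice that the first comparison did not contain. Here 37 of the 38 members were higher in R403Q-EMPA than in WT-EMPA, with a median log2 fold change of 0.56, and 51.7% of all genes were higher. Cd300ld, a member of the CD300 family of paired receptors on myeloid cells, was called, against 0.0347% of all genes. It was at 0.790, 1.10, 1.10, 1.35 and 0.982 CPM in WT-EMPA and at 2.70, 2.63, 3.03 and 2.80 CPM in R403Q-EMPA, so the groups were well apart (log2 fold change 1.39, SE 0.262, adjusted p = 0.0495). At an unadjusted p under 0.05, 25 members were higher, against 8.14% of all genes.

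Next by p were C1qa (0.76, SE 0.177, adjusted p = 0.0854), Fcer1g, which encodes the signalling chain of Fc receptors (0.84, SE 0.196, adjusted p = 0.0854), Folr2, a folate receptor of resident macrophages (0.83, SE 0.195, adjusted p = 0.0854), and Csf1r (0.48, SE 0.112, adjusted p = 0.0859). C1qb (0.77, SE 0.196), Tyrobp (0.83, SE 0.215) and C1qc (0.67, SE 0.174) each had an adjusted p of 0.108. These 7 genes missed the threshold. C1qa was at 29.2, 45.2, 55.6, 51.9 and 48.2 CPM in WT-EMPA and at 91.3, 89.8, 63.9 and 67.3 CPM in R403Q-EMPA, where the lowest mouse was above the highest of the other group. The same held for 23 of the 38 members, among them all 3 C1q genes and all 4 class II genes, against 3.35% of all genes. Without WT-EMPA 3 the test called 4 members and without WT-EMPA 4 it called 1, while leaving out any other mouse of these groups gave 0. A fit of these groups alone called 5 and DESeq2 9, and the call was lost with cage as a factor or as a random effect (0 called, 26 and 27 members at an unadjusted p under 0.05). Over all genes the test of all mice called 10 in either direction, these alternatives 123, 297, 6 and 11, and the fits without WT-EMPA 3 and WT-EMPA 4 64 and 13.

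Both diets gave a higher level in R403Q for 35 of the 38 members, the exceptions being Cd163, Timd4 and Ccr2, and 38% of all genes were higher on both. Within the 6 cages that held both genotypes, the R403Q mean was above the WT mean in 6 of 6 cages for 25 members, against 9.7% of all genes, in 5 for 6 members (Aif1, Cx3cr1, Gpnmb, H2-Ab1, H2-Eb1 and Cd74), in 4 for 4 (Cd163, Lyve1, Itgam and Cd300ld) and in 3 for 3 (Timd4, Ccr2 and Msr1).

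**Figure D3:**
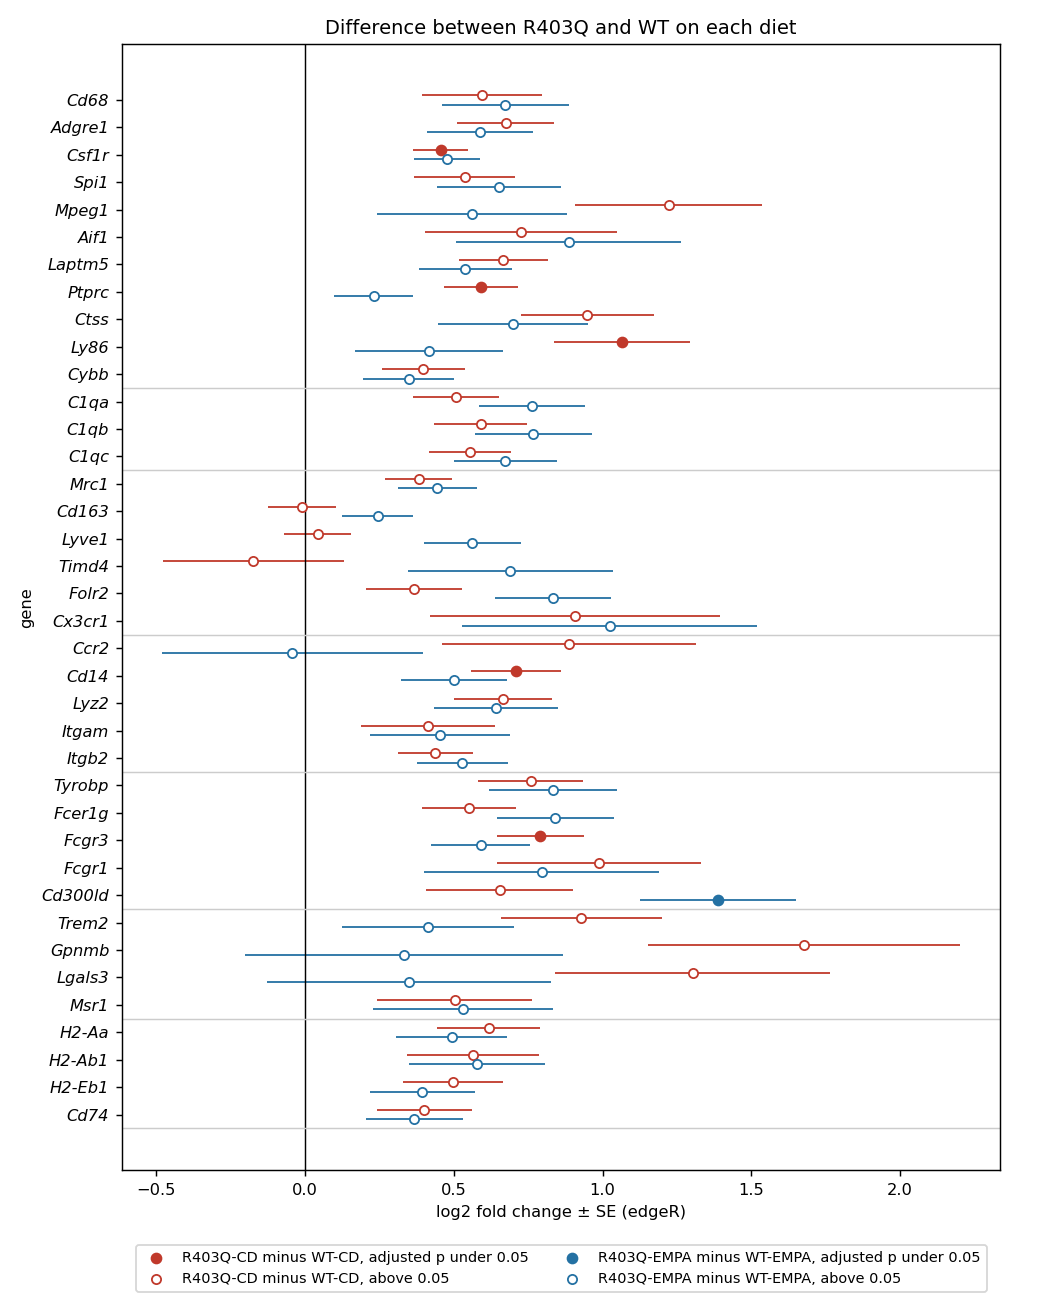
The log2 fold change of R403Q over WT (± SE) is drawn for each of the 38 genes on the control diet and on empagliflozin, with filled symbols where the adjusted p was under 0.05. The 5 filled symbols stand on the control diet and Cd300ld alone is filled on empagliflozin, while most open symbols of both diets lie above 0.

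When the genotype effect was averaged over both diets in the fit of all 4 groups, all 38 members had a fitted level above WT, with a median log2 fold change of 0.61 (range 0.12 to 1.02), and 29 rose past an adjusted p of 0.05. Of the 17309 genes tested, 52.8% were higher and 6.3% were called higher. This average rests on the mice of both comparisons above and adds no samples to them. Without R403Q-CD 2, 28 members were called, against 6.56% of all genes, with a median of 0.53.

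All 11 pan-macrophage and phagocyte genes rose. Csf1r was the smallest in error at 0.47 (SE 0.075, adjusted p = 0.00145), and Laptm5 (0.60, SE 0.105, adjusted p = 0.00263) and Adgre1, the F4/80 antigen gene (0.63, SE 0.118, adjusted p = 0.00441), followed. Adgre1 was at 10.1, 10.1, 10.7, 12.1 and 14.7 CPM in WT-CD, 14.7 to 30.9 CPM in R403Q-CD, 9.75, 14.1, 14.7, 11.9 and 12.6 CPM in WT-EMPA, and 18.7, 20.9, 18.2 and 17.9 CPM in R403Q-EMPA. Every R403Q-EMPA mouse was above every WT mouse on either diet. The pore-forming protein gene Mpeg1 (0.89, SE 0.214, adjusted p = 0.014) and Ctss (0.82, SE 0.168, adjusted p = 0.0066) had the largest fitted values in this group with R403Q-CD 2. Without that mouse, at 42.7 CPM for Mpeg1, they were 0.67 for both, close to that of Aif1 (0.69). Ly86 rose by 0.74 (SE 0.166, adjusted p = 0.0105), the lysosomal glycoprotein gene Cd68 by 0.63 (SE 0.143, adjusted p = 0.0105), the myeloid transcription factor gene Spi1 by 0.59 (SE 0.139, adjusted p = 0.0123) and Ptprc by 0.41 (SE 0.088, adjusted p = 0.00871).

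Cybb, the catalytic subunit of the phagocyte oxidase (0.37, SE 0.103, adjusted p = 0.0266), and the actin-binding protein gene Aif1 (0.81, SE 0.250, adjusted p = 0.043) were the weakest of the 11. Aif1, at 0.381 to 3.50 CPM over all mice, lost its call in 16 of the 21 fits that each left out 1 mouse (adjusted p up to 0.108) and kept it without WT-CD 5, WT-EMPA 3, R403Q-CD 3, R403Q-CD 6 or R403Q-EMPA 4. Cybb lost its call without WT-CD 1, WT-EMPA 1, R403Q-EMPA 1 or R403Q-EMPA 2 (adjusted p up to 0.0737).

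The complement genes rose together by 0.63 for C1qa (SE 0.118, adjusted p = 0.00425), 0.68 for C1qb (SE 0.131, adjusted p = 0.00493) and 0.61 for C1qc (SE 0.116, adjusted p = 0.00464). C1qa was at 41.3, 48.3, 51.0, 49.3 and 58.6 CPM in WT-CD and from 56.8 to 101 CPM with a median of 62.0 in R403Q-CD. On the control diet 2 R403Q-CD mice lay below the highest WT-CD mouse, and the EMPA groups given above did not overlap.

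All 5 Fc receptors and adaptors rose, and their median of 0.80 was the highest of the 7 role groups. Fcgr3 (0.69, SE 0.111, adjusted p = 0.00145), Cd300ld (1.02, SE 0.176, adjusted p = 0.0025), Tyrobp (0.80, SE 0.144, adjusted p = 0.00352) and Fcer1g (0.70, SE 0.131, adjusted p = 0.00442) held in each fit without 1 mouse. Tyrobp and Fcer1g encode the adaptor chains through which many of these receptors signal. The high-affinity IgG receptor gene Fcgr1 (0.89, SE 0.262, adjusted p = 0.0343), at 0.489 to 4.64 CPM, did not hold without WT-CD 1, WT-CD 3, WT-CD 4, WT-EMPA 1, WT-EMPA 4, R403Q-EMPA 1 or R403Q-EMPA 2 (adjusted p up to 0.0725).

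The 4 MHC class II genes rose when averaged over diets: H2-Aa by 0.56 (SE 0.124, adjusted p = 0.0104), H2-Ab1 by 0.57 (SE 0.151, adjusted p = 0.0223), H2-Eb1 by 0.45 (SE 0.118, adjusted p = 0.0218) and Cd74 by 0.38 (SE 0.108, adjusted p = 0.0281). H2-Aa encodes the α chain of the I-A molecule and H2-Ab1 its β chain, and H2-Eb1 encodes the β chain of I-E. H2-Aa was at 30.7, 36.2, 34.7, 36.5 and 58.5 CPM in WT-CD, 39.9 to 84.9 CPM with a median of 55.0 in R403Q-CD, 25.9, 33.7, 39.4, 35.2 and 31.4 CPM in WT-EMPA, and 49.4, 41.5, 54.2 and 41.3 CPM in R403Q-EMPA. On the control diet the H2-Aa groups overlapped through WT-CD 5, the highest WT mouse for all 4 genes, while for the other 3 genes R403Q-CD 3 also lay below at least 1 further WT-CD mouse. Cd74 was at 59.6, 62.9, 65.2, 61.8 and 97.9 CPM in WT-CD, 62.8 to 130 CPM with a median of 85.3 in R403Q-CD, 60.6, 67.0, 63.1, 63.3 and 61.8 CPM in WT-EMPA, and 71.8, 75.7, 100 and 78.4 CPM in R403Q-EMPA.

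Within the control diet alone, none of the 4 class II genes was called by edgeR (log2 fold changes 0.40 to 0.62, all 4 at an unadjusted p under 0.05), and within empagliflozin none was called (median 0.44, again all 4 at an unadjusted p under 0.05). Without R403Q-EMPA 3, the R403Q-EMPA mouse with the highest H2-Aa, H2-Ab1, H2-Eb1 and Cd74, the averaged adjusted p was 0.0576 for H2-Ab1 and 0.0582 for H2-Eb1. Cd74 missed the threshold without WT-CD 1, WT-CD 4, WT-EMPA 1 or R403Q-EMPA 3 (adjusted p up to 0.0751).

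Among the 6 resident macrophage genes, Mrc1, the mannose receptor (0.41, SE 0.089, adjusted p = 0.00881), and Folr2 (0.60, SE 0.130, adjusted p = 0.00928) rose. Cx3cr1, the haemoglobin scavenger receptor gene Cd163, the hyaluronan receptor gene Lyve1 and the phosphatidylserine receptor gene Timd4 were not called (adjusted p = 0.0621, 0.342, 0.0747 and 0.48). Cd163 was at 41.0, 50.5, 37.5, 50.6 and 50.1 CPM in WT-CD and at 35.5 to 57.8 CPM with a median of 47.1 in R403Q-CD, ranges that overlapped almost in full. In the empagliflozin groups Cd163 was at 46.9, 50.7, 49.1, 43.7 and 49.0 CPM in WT-EMPA and at 55.4, 64.3, 52.2 and 54.8 CPM in R403Q-EMPA, which did not overlap. The median fold change of the 6 was 0.20 on the control diet (0.13 without R403Q-CD 2) and 0.63 on empagliflozin, a difference tested gene by gene below. In R403Q-CD 2, whose pan-macrophage genes stood at a median log2 ratio of 1.39 to the WT-CD mean, the resident genes stood at a median of 0.06, with members on both sides: Cx3cr1 at 2.62 and Mrc1 at 0.57, but Cd163 at -0.28 and Timd4 at -1.29.

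Of the 5 monocyte-linked genes, Cd14 (0.60, SE 0.119, adjusted p = 0.00546), Lyz2 (0.65, SE 0.139, adjusted p = 0.00837) and the integrin β2 gene Itgb2 (0.48, SE 0.102, adjusted p = 0.00794) rose. Lyz2 was at 109, 119, 145, 139 and 154 CPM in WT-CD and at 160 to 351 CPM with a median of 186 in R403Q-CD, with no overlap. Ccr2, the receptor by which monocytes leave blood and marrow, was not called (adjusted p = 0.348). It was at 2.65, 1.61, 1.20, 2.53 and 2.79 CPM in WT-CD, 1.80 to 11.6 CPM with a median of 2.80 in R403Q-CD, 2.37, 3.48, 3.98, 2.47 and 3.40 CPM in WT-EMPA, and 1.93, 4.79, 3.14 and 2.21 CPM in R403Q-EMPA. The groups overlapped on both diets, and the 11.6 CPM belonged to R403Q-CD 2. The integrin αM gene Itgam was also not called (adjusted p = 0.0754).

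The injury and lipid-handling genes showed the widest spread among R403Q-CD mice. Trem2, a lipid receptor that signals through Tyrobp, rose in the average (0.67, SE 0.193, adjusted p = 0.0311). It lost its call without WT-CD 1, WT-CD 3, WT-EMPA 1, WT-EMPA 5, R403Q-EMPA 1 or R403Q-EMPA 2 (adjusted p up to 0.0647). Gpnmb was at 1.09, 2.70, 1.07, 1.13 and 1.47 CPM in WT-CD and at 7.85, 12.5, 2.13, 1.37, 5.52, 1.78 and 2.38 CPM in R403Q-CD. Of the 7 R403Q-CD mice, 3 were above every WT-CD mouse and the other 4 lay within the WT-CD range. The galectin gene Lgals3 was at 2.37 to 2.93 CPM in WT-CD and at 5.19, 21.1, 3.44, 2.32, 6.39, 3.08 and 2.73 CPM in R403Q-CD, with its 3 highest values in the same 3 mice, R403Q-CD 1, R403Q-CD 2 and R403Q-CD 5. Gpnmb, Lgals3 and the scavenger receptor gene Msr1 were not called (adjusted p = 0.0684, 0.0906 and 0.0951). The median of the 4 on the control diet was 1.12 with R403Q-CD 2 and 0.61 without it.

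**Figure D4:**
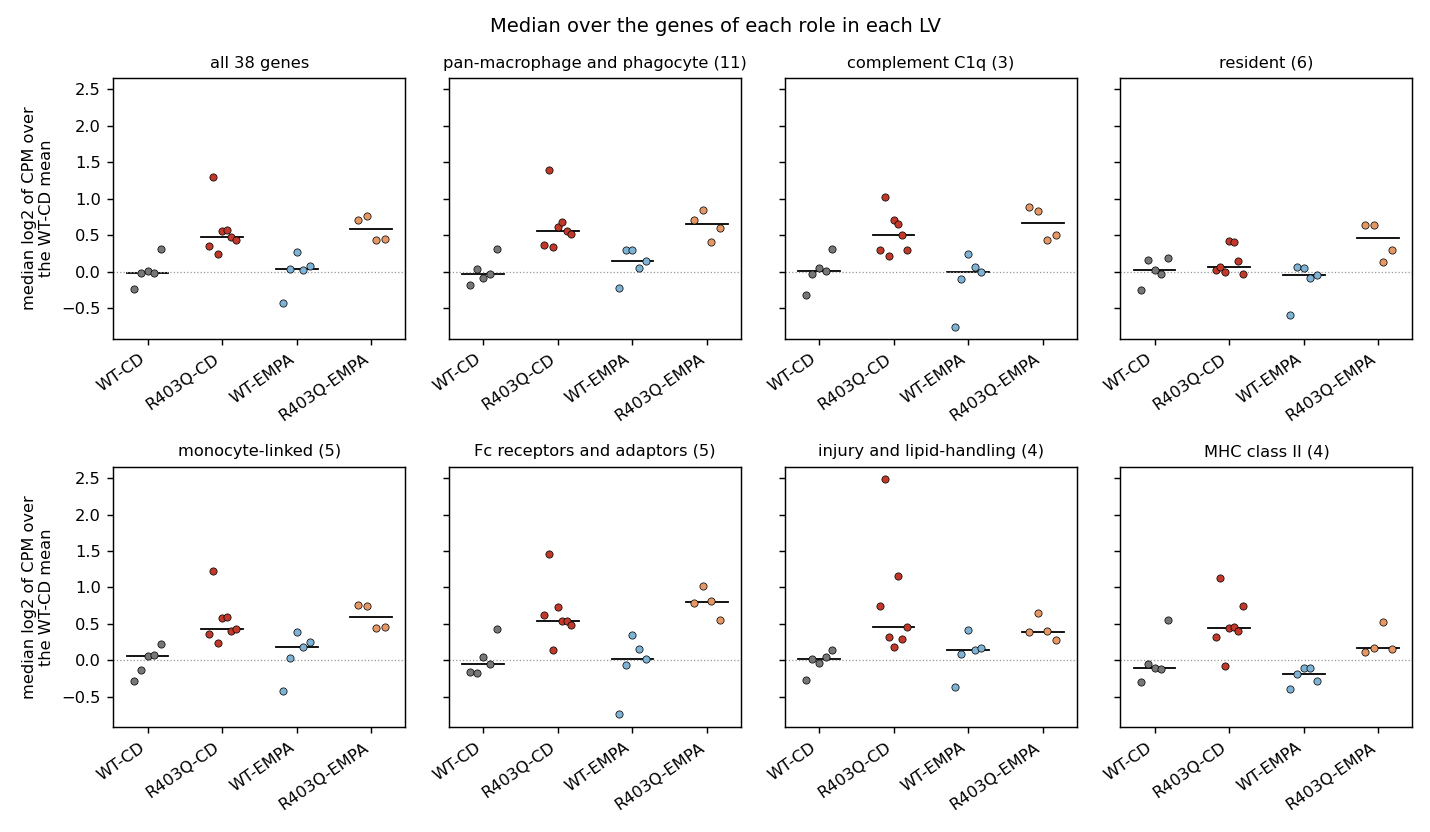
Each point is 1 mouse and gives the median, over the genes of a role, of the log2 ratio of its CPM to the WT-CD mean. In R403Q-CD 2 the injury and lipid-handling genes stood at 2.49 and the resident genes at a median of 0.06, with members on both sides of 0.

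Empagliflozin was compared with control diet in R403Q mice. In the edgeR fit of the 3 groups no member was called (smallest adjusted p = 0.32), and 0% of all genes were. Over all genes DESeq2 called 139 and the edgeR fit of all 4 groups 2, with no member among them. At an unadjusted p under 0.05 the test gave 2 members (12.5% of all genes), and DESeq2 and limma called 0, with 2 and 3 members at an unadjusted p under 0.05. Of the 38, 21 had a higher fitted level in R403Q-EMPA, against 49.2% of all genes, and the median log2 fold change was 0.02.

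The 8 members with the smallest p were Cd163 (0.31, SE 0.121, adjusted p = 0.32), Lyve1 (0.25, SE 0.120, adjusted p = 0.399), Gpnmb (-1.13, SE 0.553, adjusted p = 0.415), H2-Aa (-0.37, SE 0.185, adjusted p = 0.42), Cd300ld (0.50, SE 0.251, adjusted p = 0.426), Lgals3 (-0.92, SE 0.489, adjusted p = 0.455), H2-Eb1 (-0.34, SE 0.180, adjusted p = 0.462) and Timd4 (0.53, SE 0.320, adjusted p = 0.515). None of these passed the test. Gpnmb was at 1.13, 1.69, 2.6 and 3.48 CPM in R403Q-EMPA, within the R403Q-CD range of 1.37 to 12.5 CPM apart from the lowest mouse. Without R403Q-CD 2 the test still called 0 members, against 0.0118% of all genes in that fit. An unadjusted p under 0.05 was then found for 9 members, all higher on empagliflozin, and for 11.6% of all genes in either direction. In that fit 27 members were higher (49.6% of all genes) and the median was 0.19. Gpnmb was then at -0.66, Lgals3 at -0.20 and H2-Eb1 at -0.20. The fitted change of the injury and lipid-handling group had a median of -0.69 with that mouse and -0.18 without it, and that of the class II group -0.29 and -0.14.

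In WT mice, WT-EMPA and WT-CD differed in no member by the test (0 called, 0 at an unadjusted p under 0.05, DESeq2 and limma likewise 0 on both counts). Of all genes, 0.0289% were called and 11% had an unadjusted p under 0.05. The fitted level was higher in WT-EMPA for 20 of the 38 (49.1% of all genes), with a median of 0.01. The 8 smallest p belonged to Ptprc (0.25, SE 0.125, adjusted p = 0.485), Lyve1 (-0.27, SE 0.156, adjusted p = 0.548), Laptm5 (0.25, SE 0.150, adjusted p = 0.56), H2-Aa (-0.25, SE 0.177, adjusted p = 0.637), H2-Eb1 (-0.23, SE 0.167, adjusted p = 0.64), Ccr2 (0.54, SE 0.419, adjusted p = 0.677), H2-Ab1 (-0.25, SE 0.216, adjusted p = 0.708) and Folr2 (-0.22, SE 0.186, adjusted p = 0.71). Lyve1 was at 40.1, 48.0, 42.9, 42.7 and 41.0 CPM in WT-CD and at 22.3, 49.5, 36.0, 37.1 and 33.8 CPM in WT-EMPA, where the lowest value belonged to WT-EMPA 1.

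Averaged over genotypes, the diet comparison called 0 members, against 2.91% of all genes in either direction. An unadjusted p under 0.05 was found for 3 members, against 20.1% of all genes: H2-Aa (-0.31, SE 0.125, adjusted p = 0.162), H2-Eb1 (-0.29, SE 0.118, adjusted p = 0.177) and Cd163 (0.19, SE 0.079, adjusted p = 0.189). The next were Laptm5 (0.19, SE 0.105, adjusted p = 0.33), H2-Ab1 (-0.25, SE 0.152, adjusted p = 0.379), Cd74 (-0.15, SE 0.108, adjusted p = 0.446), Lgals3 (-0.45, SE 0.318, adjusted p = 0.456) and Gpnmb (-0.45, SE 0.355, adjusted p = 0.509). The fitted values of all 4 class II genes were below 0 in both genotypes, and none passed the test in either. Higher fitted levels on empagliflozin were seen in 21 members, against 47.6% of all genes. The median over the 38 was 0.01. Without R403Q-CD 2, 26 members were higher (47.5% of all genes), 7 had an unadjusted p under 0.05 (21% of all genes) and the median was 0.06. Laptm5 was then called (0.26, SE 0.071, adjusted p = 0.043), where 436 of 17176 genes were called higher and 4.22% in either direction. Lgals3 was at -0.09, Gpnmb at -0.23 and H2-Ab1 at -0.15 without that mouse.

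**Figure D5:**
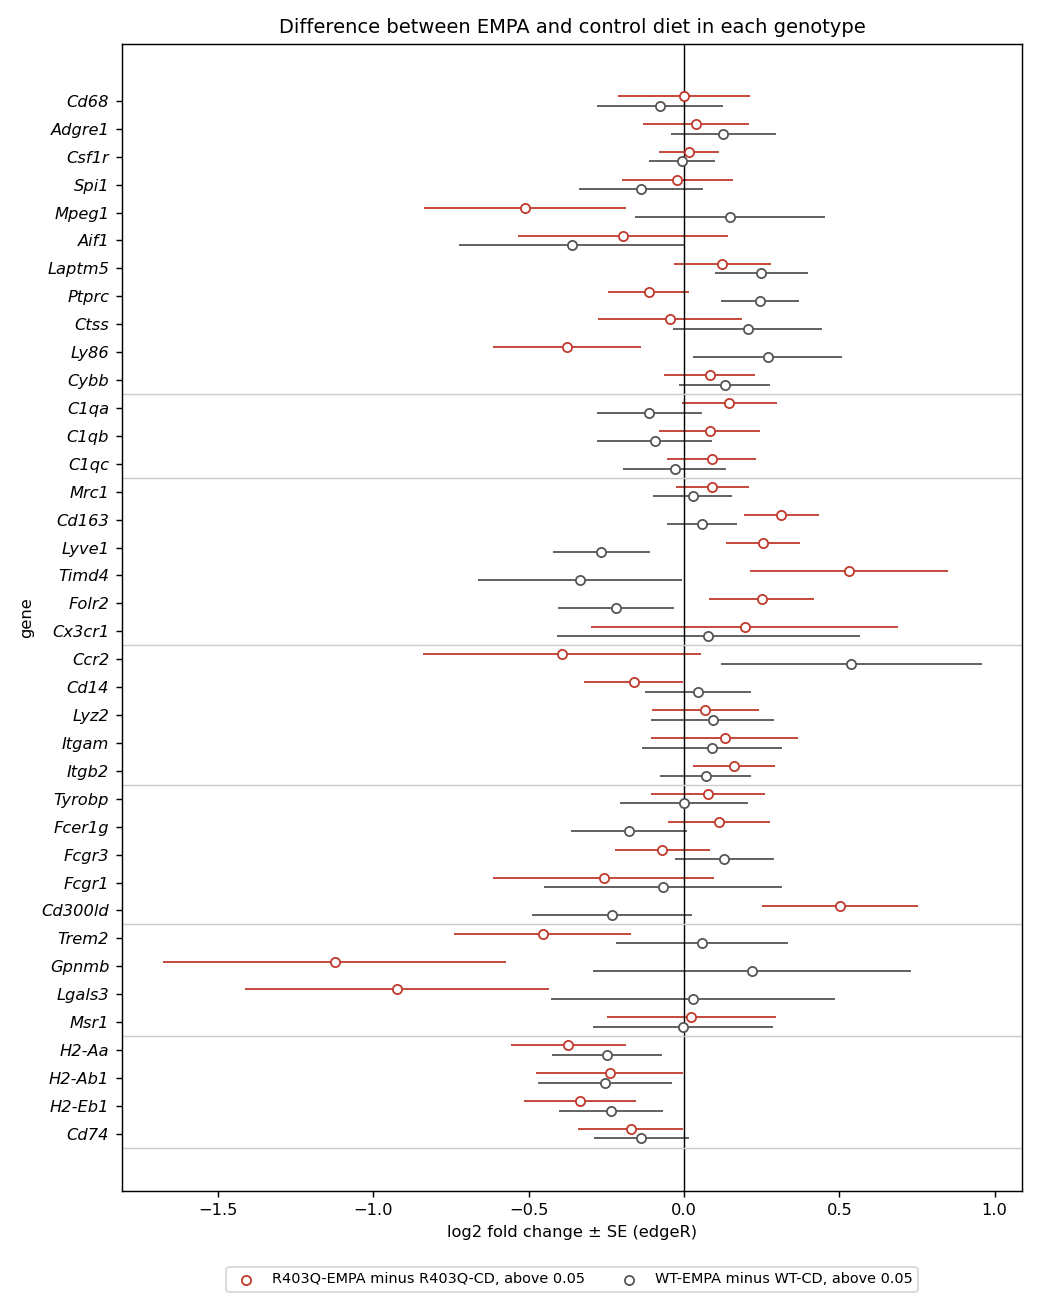
The log2 fold change of empagliflozin over control diet (± SE) is drawn for each of the 38 genes in R403Q and in WT mice. All symbols are open, since no member passed an adjusted p of 0.05 in either genotype.

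The interaction of genotype and diet, which asks whether the genotype difference was larger on empagliflozin than on control diet, called 0 of the 38 members and 0% of all genes. An unadjusted p under 0.05 was found for 2 members, Lyve1 (0.52, SE 0.218) and Cd300ld (0.73, SE 0.350), against 3.28% of all genes, and the adjusted p was 0.999 for both. DESeq2 and limma called 0, with 3 and 2 members at an unadjusted p under 0.05. The following members were Ptprc (-0.36, SE 0.176), Ly86 (-0.65, SE 0.333), Gpnmb (-1.35, SE 0.712), Timd4 (0.86, SE 0.458), Folr2 (0.47, SE 0.259) and Cd163 (0.26, SE 0.158), also at an adjusted p of 0.999. All 6 resident genes had a fitted interaction above 0, with a median of 0.36 against 0.02 over the 38, and none passed. Without R403Q-CD 2 these medians were 0.47 and 0.17, 28 of the 38 were above 0 in place of 20 (50.5% of all genes), 3 had an unadjusted p under 0.05 (3.53% of all genes) and Gpnmb was at -0.88. Lyve1 was at 38.2 to 59.3 CPM with a median of 40.3 in R403Q-CD and at 57.9, 59.9, 45.5 and 47.6 CPM in R403Q-EMPA. The difference of the genotype effects between diets was therefore not detectable with these numbers of mice.

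Other genes of the same pathways were read from lists. Of 24 tested macrophage receptors and regulators (25 listed), 23 had a higher fitted level in R403Q in the average over diets, with a median of 0.40, against 52.8% of all genes, and 14 rose, against 6.3% of all genes, among them Clec4n, Ms4a7, Vsig4, Pf4, Cbr2, Siglec1, Irf5, Tlr2, Apoe, Irf8, Cd33 and Stab1. Ms4a7, a membrane protein of tissue macrophages, rose by 1.40, the C-type lectin receptor gene Clec4n by 1.01 (adjusted p = 0.00603) and the complement receptor gene Vsig4 by 0.88. Clec4n was also called on the control diet alone (adjusted p = 0.0327). Without R403Q-CD 2, which had 16.9 CPM of Ms4a7 against at most 4.83 in the other R403Q-CD mice, 14 of this list were called, the median was 0.35 and Ms4a7 was at 1.06.

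For class II antigen processing beyond the members, 12 of 14 tested genes were higher (16 listed, median 0.34) and 3 rose, against the same 52.8% and 6.3% of all genes: the lysosomal reductase Ifi30 (0.49, adjusted p = 0.0152), the protease Lgmn (0.27, adjusted p = 0.0397) and the co-stimulatory ligand Cd86 (0.49, adjusted p = 0.0207). Ciita, the master activator of class II genes (0.32, adjusted p = 0.189), and the peptide-loading genes H2-DMb1 (0.56, adjusted p = 0.0615) and H2-DMa (0.36, adjusted p = 0.0959) were not called. Of 14 tested survival and recruitment signals (21 listed), all 14 were higher with a median of 0.59, and 4 rose, again against 6.3% of all genes: the chemokine genes Ccl8 (1.54, adjusted p = 0.0276), Ccl6 (0.55, adjusted p = 0.0246) and Ccl9 (0.64, adjusted p = 0.0267) and the cytokine gene Il1b (0.98, adjusted p = 0.0158). The ligands of the Csf1r receptor, Csf1 (0.11, adjusted p = 0.331) and Il34 (0.24, adjusted p = 0.326), were not called, nor were the Ccr2 ligand gene Ccl2 (0.94, adjusted p = 0.0715) and Spp1 (2.21, adjusted p = 0.0732). The mouse R403Q-CD 2 was far above the other R403Q-CD mice for Ccl8 (7.60 against at most 2.55 CPM) and Spp1 (92.0 against at most 18.4 CPM). Without it the medians of these lists were 0.27 and 0.39, with 3 and 5 called, Ccl8 was at 1.16 (adjusted p = 0.0263) and Cx3cl1 was called in addition (0.38, adjusted p = 0.0415).

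Markers of other cells that share some of these genes were measured in the same contrast. Calls below are read against the 6.3% of all genes called higher and, for lower values, 792 of 17309 called lower. Of the monocyte list 1 of 6 tested genes rose (F13a1, 0.44), and Ly6c2 was below the filter. In the R403Q-CD mice other than R403Q-CD 2, F13a1 was at 94.2 to 150 CPM and Ly6c2 at 0.0748 to 0.292 CPM. Which cells carried F13a1 was not tested. None of 6 tested dendritic cell markers and none of 7 neutrophil markers was called by edgeR, with 1 in each list at an unadjusted p under 0.05. Without R403Q-CD 2, Clec10a of the dendritic cell list was called (0.59, adjusted p = 0.0231), and the cells that carried it were likewise not tested. All 4 tested mast cell markers rose (Cpa3 1.21, Cma1 1.04, Mcpt4 1.35, Tpsb2 1.22), and their summed level over the 6 listed genes was 2.78 to 10.2 CPM in WT-CD, 5.21 to 16.4 in R403Q-CD, 1.35 to 5.91 in WT-EMPA and 6.56 to 12.9 in R403Q-EMPA. Of the fibroblast markers all 7 were higher and 2 rose (Dcn and Lum, with Tcf21 in addition without R403Q-CD 2), with summed levels of 1180 to 1908 CPM in WT-CD, 1585 to 5353 in R403Q-CD, 1061 to 1664 in WT-EMPA and 1735 to 2222 in R403Q-EMPA. Of 7 cardiomyocyte markers 1 (Myh6) fell, by 0.39 on the log2 scale. The part of these shifts in the macrophage and class II values was not tested. Lyve1 is also a gene of lymphatic endothelium, and of that list 4 of 5 tested genes had a higher fitted level (median 0.16), with 0 called higher and 1, the factor gene Prox1, called lower (-0.30).

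Pairs of genes were correlated over the 21 mice after the group means were removed, with permutation p adjusted over 12 pairs. Each p printed is that of r unless it is given for rho. Within the class II group, Cd74 followed H2-Ab1 (r = 0.96, rho = 0.87), H2-Eb1 (r = 0.94, rho = 0.78) and H2-Aa (r = 0.89, rho = 0.68), each with a permutation adjusted p of 4e-05. Without the mice R403Q-CD 2 and WT-CD 5 these were 0.93, 0.87 and 0.78. Within the control diet (12 mice) they were 0.97, 0.98 and 0.97, and within empagliflozin (9 mice) 0.92, 0.72 and 0.47. Cd74 and Ciita gave r = 0.50 (permutation adjusted p = 0.027), which fell to 0.45 without those mice (permutation p = 0.0528). Their rho was 0.41 (permutation adjusted p = 0.0805), which did not pass.

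Cd74 and the macrophage gene Adgre1 gave r = 0.69 (permutation adjusted p = 0.00158, rho = 0.51). That relation rested on R403Q-CD 2 and WT-CD 5: without them r was 0.32 (permutation p = 0.185), and it was 0.82 within the control diet and 0.05 within empagliflozin. Cd74 and the dendritic cell gene Cd209a gave r = -0.01 (permutation adjusted p = 0.962), with Cd209a below the filter on low counts. C1qa followed Adgre1 (r = 0.77, rho = 0.70, permutation adjusted p = 0.00015) and Csf1r (r = 0.68, rho = 0.67, permutation adjusted p = 0.00158) and did so on both diets (0.83 and 0.79 for Adgre1, 0.78 and 0.57 for Csf1r). Without the 2 farthest mice these were 0.63 and 0.53.

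Lyve1 followed the resident gene Folr2 (r = 0.63, rho = 0.69, permutation adjusted p = 0.00375, 0.46 on control diet and 0.73 on empagliflozin). It went against Prox1 of the lymphatic list (r = -0.52, rho = -0.57, permutation adjusted p = 0.023, -0.45 and -0.71 within the diets). The cells that carried Prox1 in whole LV were not tested, so this relation does not separate Lyve1 from lymphatic vessels. Ccr2 and the monocyte gene Ly6c2 gave r = 0.47 (permutation adjusted p = 0.0411), falling to 0.44 without the 2 farthest mice (permutation p = 0.0631). Their rho was 0.46 (permutation adjusted p = 0.0514), which did not pass, and Ly6c2 was below the filter on low counts. Trem2 and Gpnmb gave r = 0.39 (rho = 0.29, permutation adjusted p = 0.0908) and did not pass, and r was 0.02 without the 2 farthest mice. The 21 mice share cages and the depth of their libraries, and removal of group means leaves those in place.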

How the data were processed

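LV RNA of 21 mice was prepared as poly(A) libraries and sequenced as paired reads. Per the labels and the study's methods, the authors aligned reads with STAR 2.6.0c to mm10 and counted uniquely aligned proper pairs on the gene's own strand over nonmitochondrial Ensembl genes with featureCounts (Subread 1.6.2). The deposited counts were raw and whole, and their totals ran from 23491535 to 43539684 per mouse. The authors also deposited variance-stabilized log2 values made with DESeq2 1.32.0, which served here as an alternative input.

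Counts were tested with edgeR 4.0.16 in R 4.3.3 (quasi-likelihood F test, TMM scaling, filterByExpr with a minimum count of 10, Benjamini-Hochberg adjustment over all genes tested, threshold 0.05). R403Q-CD against WT-CD and R403Q-EMPA against R403Q-CD came from a fit of those 3 groups (17025 genes), the other contrasts from a fit of all 4 groups (17309 genes). Relations between genes used log2 CPM (prior count 2) with group means removed and 100000 two-sided permutations. The code was tested on simulated counts. CPM was scaled by TMM, except for the floor of 3 counts, which used total counts. Levels between genes were compared per kb of exon. Groups came from the labels, each mouse was 1 replicate, and every column matched a mouse.

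The members and lists were chosen with earlier results of these data known. For each contrast, fold changes are printed for members past the threshold or, where fewer than 8 passed, for the 8 with the smallest p. Alternatives were DESeq2 1.42.0, limma 3.58.1 on the deposited log2 values, no filter, library-size scaling, cage as a random effect or factor, other groups in the fit, and each mouse left out. The cage factor over all mice, the omission of both R403Q-CD 2 and WT-EMPA 1, and the lists without R403Q-CD 2 were added after seeing the data. Promoters came from RefSeq (GRCm38.p6) and positions from GENCODE M21.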

Additional observations from a re-analysis of the deposited data

Results flagged for a closer look

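A mouse far from the rest of its group was found in 22 of the 152 values tested (38 genes in 4 groups), where chance gives about 1 in 20 groups. The 38 genes are read in the same mice, so these are not independent. Of the 22, 18 were R403Q-CD 2, the highest of 7 mice in each. Its pan-macrophage genes stood at 30.9 CPM for Adgre1, 7.76 for Spi1, 42.7 for Mpeg1, 30.8 for Laptm5, 61.3 for Ctss and 6.44 for Ly86. Its C1qb was at 101 CPM and its Cx3cr1 at 7.02. Among the monocyte-linked genes Ccr2 was at 11.6 CPM, Lyz2 at 351 and Itgb2 at 12.1. The Fc receptors and adaptors were at 22.1 CPM for Tyrobp, 15.8 for Fcer1g, 4.64 for Fcgr1 and 3.42 for Cd300ld, and the injury genes at 9.62 for Trem2, 21.1 for Lgals3 and 12.6 for Msr1.

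In WT-CD mice, WT-CD 2 was apart for Gpnmb (2.70 CPM), and WT-CD 5 for H2-Aa (58.5 CPM), H2-Eb1 (40.3 CPM) and Cd74 (97.9 CPM), each the highest of 5.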

How the results depend on the processing

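The median log2 fold change of the 38 members stayed above 0 for R403Q against WT on each diet and in the average under every alternative run, while the medians of the diet comparisons and the interaction lay near 0 and changed sign in some. With 1 mouse left out it ran from 0.43 to 0.71 for R403Q-CD against WT-CD, -0.05 to 0.19 for R403Q-EMPA against R403Q-CD, -0.07 to 0.10 for WT-EMPA against WT-CD, 0.49 to 0.61 for R403Q-EMPA against WT-EMPA, -0.07 to 0.17 for the interaction, 0.53 to 0.66 for the genotype and -0.03 to 0.08 for the diet averaged.

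Counts of called members moved more. For R403Q-CD against WT-CD (5 called) the count was 20 with DESeq2, 3 with limma, 10 with cage as a random effect, 10 in the fit of all 4 groups, 0 in a fit of these groups alone, 0 with cage as a factor (34 at an unadjusted p under 0.05) and 0 to 17 with 1 mouse left out. For R403Q-EMPA against WT-EMPA (1 called) it was 9 with DESeq2, 0 with no filter, 0 with cage as a random effect, 5 in a fit of these groups alone, 0 with cage as a factor, 6 without both R403Q-CD 2 and WT-EMPA 1, and 0 to 4 with 1 mouse left out. Counts over all genes moved with these settings, from 98 to between 14 and 806 on the control diet and from 10 to between 1 and 297 on empagliflozin. The cause was not tested. For the diet averaged over genotypes (0 called) it was 1 without both of those mice and 0 to 1 with 1 mouse left out. The genotype averaged over diets gave 28 to 32 calls over the planned and added settings and 24 to 32 with 1 mouse left out. The remaining comparisons gave 0 calls throughout.

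Each fold change printed for a single member in a contrast was compared between the main fit and every alternative. In these comparisons none reversed, 1678 kept their side of the threshold, 104 lost the call and 38 gained it. The relation of Cd74 and Cd209a, near 0, was 0.0872 with library-size scaling. The labels give no replicate numbers that groups share, so blocking was by cage, as given above. With genotype and cage as factors over all mice 32 members were called. Groups of 4 to 7 mice limit what could be detected.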

Other observations

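Marker lists of blood cells held calls between the diets. Averaged over genotypes, 4 of 7 tested neutrophil markers were called higher on empagliflozin by edgeR, against 2.91% of all genes called in either direction (S100a8 2.16 on the log2 scale, adjusted p = 0.0274, with S100a9 1.66, Retnlg 2.48 and Mmp9 1.14). Their summed level was 2.65 to 14.1 CPM in WT-CD, 5.25 to 13.0 in R403Q-CD, 11.1 to 56.4 in WT-EMPA and 6.95 to 34.2 in R403Q-EMPA, so the groups overlapped. The highest sums on empagliflozin, in WT-EMPA 5 and R403Q-EMPA 4, came from mice that shared a cage, and cage and diet cannot be told apart. With cage as a random effect, 113 of 17309 genes were called for this diet average, against 504 in the main fit. The median of the 7 was 1.99 in WT and 0.34 in R403Q mice, with no marker called in either alone and none in the interaction (median -1.18, 0 of 7 above 0), and 3 were called in the average without R403Q-CD 2. Of 5 red blood cell markers all 5 had a higher fitted level and 4 were called. Cebpb was lower (-0.29, adjusted p = 0.0452), and Prox1 (0.34) was the 1 call among 5 tested lymphatic markers, of which 4 had a higher fitted level. Of 7 endothelial markers 3 had a higher fitted level (median -0.01), and the receptor gene Kdr (0.35) was the 1 called. Without R403Q-CD 2 the macrophage receptors and regulators held 3 calls higher and 1 lower, among them Siglec1 (0.50, adjusted p = 0.0244) and Vsig4 (0.66, adjusted p = 0.0407), and Ccl8 (1.71, adjusted p = 0.00852) and the fibroblast marker Pdgfra (0.20, adjusted p = 0.0484) were also called higher, against 436 of 17176 genes. Of the 7 fibroblast markers, 3 had a higher fitted level in that fit, with a median of -0.13.

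In the genotype comparison averaged over diets, 1 of 7 T cell markers (Cd4), 1 of 5 tested B cell markers (Ighm), 1 of 7 endothelial and 1 of 4 mesothelial markers rose, where 6.3% of all genes were called higher, while edgeR made 0 calls in the adipocyte, pericyte and red blood cell lists (0, 1 and 0 markers at an unadjusted p under 0.05). Without R403Q-CD 2 the pericyte and smooth muscle marker Abcc9 was called lower (-0.32, adjusted p = 0.0272). No NK cell marker passed the filter on low counts, and their summed level was at most 0.933 CPM in any mouse.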
